A study of Saccharomyces cerevisiae with 9 samples.

Results

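The small ribosomal subunit of budding yeast is built on 1 ribosomal RNA and a fixed set of proteins, and the genes for those proteins, RPS0A to RPS31, were followed here in poly(A)-selected RNA from Saccharomyces cerevisiae. The 56 genes were taken by name from a table of 5928 genes, and the group was chosen with earlier results of these data known. They form 24 pairs of A and B copies, which encode the same or nearly the same protein, and 8 genes with a single copy. The 9 libraries came from 3 strains with 3 biological replicates each, all of w303 background and mating type alpha. All strains carried marker alleles at HIS3, LEU2, ADE2, TRP1 and URA3, and in all of them the chromosomal PCF11 gene was gone, replaced with TRP1. PCF11, which encodes a subunit of cleavage factor IA, was supplied on a LEU2 plasmid. One label field describes the plasmid as low in copy number and centromeric, the genotype field names its vector pRS325-LEU2, and its copy number was not measured here. The plasmid held PCF11 with V5 and MYC tags in wild type, pcf11-13 with no named tag in Pcf11-13, and pcf11-deltaN-link with V5 and MYC tags in Pcf11-DNL. The labels do not say which residues either mutant allele changes. Cultures grew at 30 °C to an optical density between 1.0 and 1.2, and every library carries the treatment label glucose.

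In yeast, RPS genes are among the most strongly transcribed genes, and many are bound by the factor Rap1 together with Fhl1 and Ifh1. Nutrient signals through TOR and protein kinase A raise their transcription with growth, and stress lowers it. Many of the genes contain an intron, which is otherwise uncommon in this organism. Pcf11 binds the tail of RNA polymerase II and is needed both for cleavage of the 3′ end of pre-mRNA and for the end of transcription.

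The deposited values are expected counts, the authors' estimates of reads per gene, and library totals lay between 11372819 and 15906466. Levels below are in CPM, a gene's counts relative to the library total after TMM scaling, which centres most genes between libraries. A change is a log2 fold change from edgeR's quasi-likelihood test on all 9 libraries, and p-values were adjusted over the 5646 genes tested. Its standard error (SE) was calculated from the F statistic of that test and the fitted coefficient before edgeR's shrinkage. A gene is said to have risen or fallen where that adjusted p was under 0.05. All 56 genes passed the filter on low counts, with expected counts between 329 and 66123 per library. The level of PCF11 RNA was 84.7 ± 3.05 CPM for wild type cultures (SD, n = 3), 648 ± 32.3 for those with pcf11-13 and 67.4 ± 2.56 for Pcf11-DNL. In comparisons with Pcf11-13, allele, tags and PCF11 RNA level therefore cannot be told apart as sources of a difference. Wild type and Pcf11-DNL carry the same named tags, so between them allele and PCF11 RNA level cannot be told apart. CPM and changes are relative to the bulk of genes in the library, which TMM centres, so they are not shares of all counts. The shares are given separately, and the amount of mRNA per cell was not measured. Wild type replicate 1 stood apart: over the 56 genes its counts differed from those of replicates 2 and 3 with a chi-square per degree of freedom of 30.1 and 34.2, where every other pair of replicates lay between 2.98 and 8.58. The main counts are given with and without it.

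Levels per 1000 bases of coding sequence differed widely among genes whose proteins are present once in each subunit. Among the highest in wild type was RPS31, whose product is made as a fusion to ubiquitin, at 5850 ± 402 CPM per kilobase (SD, n = 3), followed by RPS2 at 5225 ± 94.2 and RPS9B at 5085 ± 21.1. The lowest were RPS29A at 214 ± 18.7, RPS28B at 227 ± 11.5, RPS29B at 285 ± 36.5 and RPS22B at 362 ± 5.26, and the libraries of the first pair of these overlapped. Short genes read low on this scale: the 10 genes with coding regions under 300 bases had a median of 741 CPM per kilobase and the other 46 a median of 2972. The part of gene length in this order was not tested.

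In Pcf11-13 the genes of the small subunit were lower almost without exception. Of the 56, 53 fell against wild type, 1 rose and 2 did not pass the test, where 30.9% of all genes tested fell and 35.2% rose. The median log2 fold change was −0.46 against 0.03 for all genes, that is a TMM-scaled level of 0.728 of wild type. The middle of the distribution was narrow, with quartiles at −0.53 and −0.36. The gene that rose was RPS14B, at 0.52, and the 2 that did not pass were RPS30A, at −0.10, and RPS30B, at −0.14. In Pcf11-DNL the same genes stayed near wild type: 4 fell and 1 rose, where 4.3% of all genes fell and 8.73% rose, and the median was −0.04 against 0.00 for all genes. Between the mutants, 54 genes were higher in Pcf11-DNL than in Pcf11-13 and 0 were lower by edgeR's test (55 had an unadjusted p under 0.05), where 29.5% of all genes were higher and 30.9% lower.

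Summed over the 56 genes, the share of all counts was 6.68%, 7.24% and 7.22% in the wild type libraries. It was 5.78%, 5.91% and 6.02% in those of Pcf11-13 and 6.94%, 7.24% and 6.98% in those of Pcf11-DNL. All libraries with pcf11-13 lay below the other 6, and those of wild type and Pcf11-DNL overlapped. The exact permutation test of the group means, two-sided, gave p = 0.1 for Pcf11-13 against wild type, which is the smallest p that 3 libraries against 3 allow, and p = 0.9 for Pcf11-DNL against wild type. Counts of large subunit protein genes moved alongside, so that the ratio of small to large subunit counts was 0.703 ± 0.0143 for wild type (SD, n = 3), 0.705 ± 0.00392 for Pcf11-13 and 0.708 ± 0.00586 for Pcf11-DNL.

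**Figure D1:**
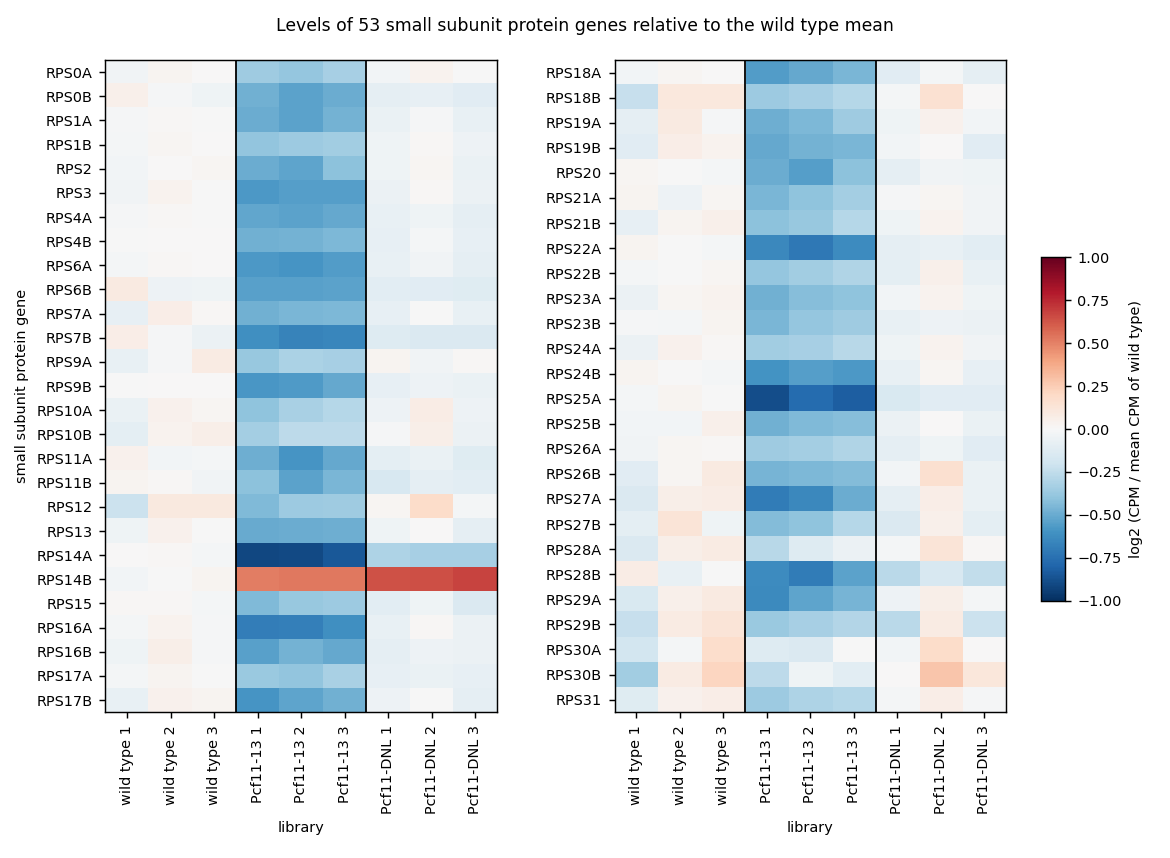
Level of 53 of the 56 genes in each of the 9 libraries, as log2 of its CPM over the mean of the 3 wild type libraries (blue lower, red higher; white is equal). The Pcf11-13 columns are blue for nearly every gene and red for RPS14B, the Pcf11-DNL columns are close to white except for RPS14A and RPS14B, and wild type replicate 1 is low for RPS30B, RPS18B and RPS12.

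The pair that departed from the rest was RPS14. Rps14 is a protein of the platform, next to the end of the ribosomal RNA, and in yeast it is known to bind the transcript of RPS14B and to limit the splicing and level of that transcript. RPS14A (YCR031C) lies at chrIII:177500-178220 on the minus strand and RPS14B (YJL191W) at chrX:73787-74611 on the plus strand (R64 assembly), each with an intron in the coding region. The sequences below are shown because RPS14A is the one gene of the 56 whose nearest upstream gene is a snoRNA gene, SNR189, on the same strand, with its annotated end 389 bases before the RPS14A start codon. They are read 5′ to 3′ on the strand of the gene from RefSeq's R64 genome. For RPS14A the stretch runs from 400 to 101 bases before the start codon (chrIII:178321-178620), with the last 11 bases of SNR189 in capitals. For RPS14B it runs from 300 to 101 bases before the start codon (chrX:73487-73686).
RPS14A: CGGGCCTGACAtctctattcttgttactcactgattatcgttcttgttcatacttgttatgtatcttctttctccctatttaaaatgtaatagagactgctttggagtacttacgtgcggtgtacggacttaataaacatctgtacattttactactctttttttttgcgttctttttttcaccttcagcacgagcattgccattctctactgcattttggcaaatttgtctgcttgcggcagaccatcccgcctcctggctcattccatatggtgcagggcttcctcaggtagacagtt
RPS14B: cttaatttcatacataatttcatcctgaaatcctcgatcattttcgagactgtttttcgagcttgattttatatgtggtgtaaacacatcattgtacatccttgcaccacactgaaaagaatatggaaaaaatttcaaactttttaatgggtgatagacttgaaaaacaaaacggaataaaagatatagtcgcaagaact
The first 40 bases of the introns of both copies follow, at chrIII:178174-178213 and chrX:73797-73836, with the first 6 bases, the start of the 5′ splice site, in capitals.
RPS14A intron: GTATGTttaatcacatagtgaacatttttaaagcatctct
RPS14B intron: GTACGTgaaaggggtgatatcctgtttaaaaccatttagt
The letters GTATGT of RPS14A open 189 of the 255 coding introns in genes with 1 annotated intron (74.1%) and 24 of the 36 introns of the small subunit genes. The letters GTACGT of RPS14B open 26 of the 255 (10.2%) and 9 of the 36, so RPS14B shares them with both copies of RPS9, RPS19 and RPS30 and with RPS17B and RPS21B.

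RPS14A stood at 1278, 1282 and 1258 CPM in wild type, 679, 679 and 706 in Pcf11-13, and 1028, 1010 and 1011 in Pcf11-DNL. Every mutant library lay below every wild type library, with Pcf11-13 lowest. RPS14B stood at 262, 266 and 272 CPM in wild type, 381, 385 and 386 in Pcf11-13, and 414, 418 and 426 in Pcf11-DNL. Here the order was the other way round, with all 6 mutant libraries above wild type and Pcf11-DNL highest. On the log2 scale RPS14A fell by 0.89 in Pcf11-13 (SE 0.0379, adjusted p 1.53e-11 by edgeR) and by 0.32 in Pcf11-DNL (SE 0.0375, adjusted p 2.75e-05), the lowest value of the 56 in both mutants. RPS14B rose by 0.52 in Pcf11-13 (SE 0.0396, adjusted p 1.23e-08 by edgeR) and by 0.65 in Pcf11-DNL (SE 0.0396, adjusted p 2.36e-08), the one member called higher in either mutant. Against Pcf11-13, RPS14A was higher in Pcf11-DNL by 0.56 (adjusted p 5.29e-09) and RPS14B by 0.13 (adjusted p 0.0104), but RPS14B turned to −0.04 when libraries were scaled by their totals alone. Both comparisons with wild type share the same 3 wild type libraries.

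The copies of RPS14 differ at 3 positions of the protein and are 92.1% identical over the coding region. Some values of both copies were not whole numbers, 4 of 9 each, so some reads were divided between genes by the authors' counting. RPS14A held 82.7% ± 0.404 (SD, n = 3) of the counts of the pair in the wild type libraries, 64.2% ± 0.434 in those of Pcf11-13 and 70.8% ± 0.468 in those of Pcf11-DNL. With the counts of both copies summed before the fit, the total stood at 1540, 1548 and 1530 CPM in wild type, 1060, 1064 and 1092 in Pcf11-13, and 1442, 1427 and 1437 in Pcf11-DNL. As a log2 change, the sum fell by 0.52 in Pcf11-13 (SE 0.0361, adjusted p 4.01e-09 by edgeR), close to the median of the other genes. In Pcf11-DNL it was −0.10 (SE 0.0359, adjusted p 0.0761), which did not pass the test.

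**Figure D2:**
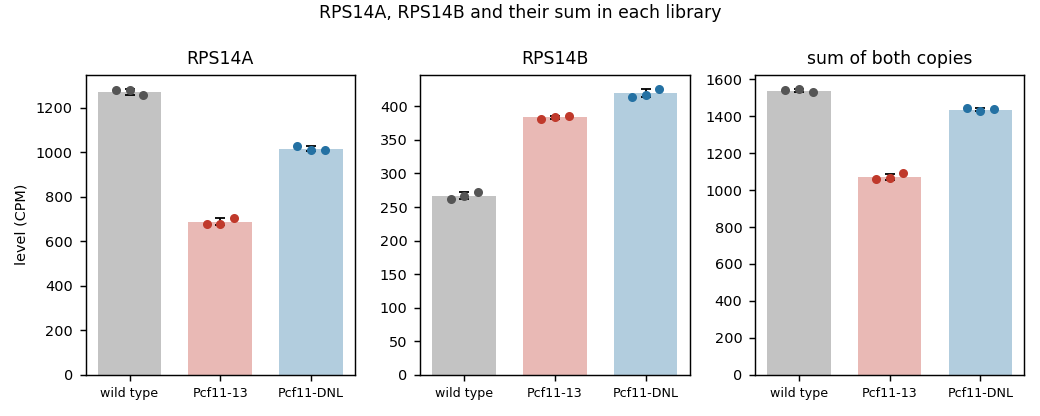
Level of RPS14A, of RPS14B and of their sum in CPM, with a separate vertical axis in each panel that starts at 0. Points are libraries, bars the mean of 3 replicates and whiskers the SD; RPS14A is lower and RPS14B higher in both mutants, and the sum in Pcf11-DNL, at 1435 CPM, is nearer to wild type, at 1539, than to Pcf11-13, at 1072.

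Of the 34 genes for proteins of the body and platform, 31 fell in Pcf11-13, RPS14B rose and the RPS30 copies did not pass, with a median of −0.47. Over all genes tested, 30.9% fell and 35.2% rose in that strain.

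RPS22A (YJL190C), for a protein that binds the central domain of the ribosomal RNA early in assembly, stood at 1541, 1505 and 1491 CPM in wild type, 965, 923 and 980 in Pcf11-13 and 1418, 1434 and 1403 in Pcf11-DNL. Its libraries with pcf11-13 lay far below the other 6. It fell by 0.66 in Pcf11-13 (SE 0.0386, adjusted p 6.96e-10 by edgeR). RPS22A lies at chrX:74910-75302 on the minus strand and points towards RPS14B, with 298 bases between their coding ends, so RPS22A, among the 6 genes that fell furthest, and the one gene that rose are convergent neighbours. The other copy, RPS22B, which hosts the snoRNA gene SNR44 in its intron, stood at 141, 142 and 145 CPM in wild type, 109, 112 and 115 in Pcf11-13 and 133, 147 and 135 in Pcf11-DNL. Its Pcf11-DNL libraries lay on both sides of wild type, and it fell by 0.35 in Pcf11-13 (SE 0.0472, adjusted p 8.34e-06).

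RPS7B (YNL096C) stood at 737, 698 and 673 CPM in wild type, 458, 442 and 446 in Pcf11-13 and 641, 634 and 637 in Pcf11-DNL. It fell by 0.65 in Pcf11-13 (SE 0.0427, adjusted p 2.75e-09 by edgeR) and its copy RPS7A by 0.46 (SE 0.0438, adjusted p 1.46e-07). The Rps7 copies differ most of all pairs, with 87.9% identity, and their values were all whole. RPS9A, whose expression in yeast is held down through its intron, supplied 10.5% ± 0.490 (SD, n = 3) of the counts of its pair in wild type and 12.0% ± 0.267 in Pcf11-13. It stood at 334, 350 and 372 CPM in wild type, 270, 283 and 280 in Pcf11-13 and 358, 343 and 356 in Pcf11-DNL. RPS9B stood at 2977, 3001 and 2992 CPM in wild type, 1995, 2016 and 2094 in Pcf11-13 and 2823, 2890 and 2849 in Pcf11-DNL. For RPS9A wild type and Pcf11-DNL overlapped, and for RPS9B all strains were separate. RPS9A fell by 0.34 in Pcf11-13 (SE 0.0466, adjusted p 8.36e-06 by edgeR) and RPS9B by 0.56 (SE 0.0357, adjusted p 1.92e-09).

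RPS30A and RPS30B encode identical short proteins of the shoulder. RPS30B (YOR182C) stood at 120, 162 and 178 CPM in wild type, 128, 149 and 142 in Pcf11-13 and 154, 186 and 166 in Pcf11-DNL, and the low wild type value is that of replicate 1. RPS30A (YLR287C-A) stood at 79.4, 88.8 and 102 CPM in wild type, 82.1, 81.2 and 89.6 in Pcf11-13 and 88.1, 102 and 90.1 in Pcf11-DNL. For both genes each mutant overlapped wild type. Without wild type replicate 1, RPS30B was at −0.28 in Pcf11-13 (adjusted p 0.00189 by edgeR) and RPS30A at −0.18 (adjusted p 0.0278), and both then passed, which brought the count to 55 lower and 1 higher of 56.

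All 22 genes for proteins of the head fell in Pcf11-13, with a median of −0.44, where 30.9% of all genes tested fell. RPS25A (YGR027C), for a protein that in yeast is needed for initiation at some viral internal entry sites, stood at 830, 858 and 840 CPM in wild type, 457, 493 and 477 in Pcf11-13 and 758, 778 and 779 in Pcf11-DNL. Libraries of different strains did not overlap. Its copy RPS25B stood at 434, 434 and 458 CPM in wild type, 316, 325 and 328 in Pcf11-13 and 423, 442 and 422 in Pcf11-DNL, where the last overlapped wild type. RPS25A fell by 0.83 in Pcf11-13 (SE 0.0416, adjusted p 1.06e-10 by edgeR) and RPS25B by 0.45 (SE 0.0423, adjusted p 1.39e-07). RPS16A (YMR143W), whose protein reaches the transfer RNA in the P site with its tail, stood at 1131, 1177 and 1139 CPM in wild type, 710, 717 and 751 in Pcf11-13 and 1094, 1156 and 1104 in Pcf11-DNL. It fell by 0.66 in Pcf11-13 (SE 0.0412, adjusted p 1.37e-09 by edgeR) and RPS16B by 0.51 (SE 0.0402, adjusted p 1.94e-08).

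RPS28 was split by the mutants in the direction opposite to RPS14 and RPS25. In yeast the Rps28 protein is known to bind the RPS28B transcript and promote its decay. RPS28B (YLR264W) stood at 48.7, 44.0 and 46.3 CPM in wild type, 29.9, 28.6 and 31.9 in Pcf11-13 and 38.4, 41.4 and 39.1 in Pcf11-DNL, with no overlap between strains. RPS28A (YOR167C) stood at 190, 220 and 223 CPM in wild type, 174, 193 and 202 in Pcf11-13 and 208, 231 and 213 in Pcf11-DNL, and here each mutant overlapped wild type. RPS28B fell by 0.62 in Pcf11-13 (SE 0.0649, adjusted p 4.59e-07 by edgeR). RPS28A, at −0.16 (SE 0.0656, adjusted p 0.0464 by edgeR), is the weakest of the 53 calls: in 6 of the 9 fits that each left out 1 library it did not pass, with adjusted p up to 0.219. Those 6 left out wild type replicate 2 or 3, Pcf11-13 replicate 1 or 2, or Pcf11-DNL replicate 1 or 3.

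The 8 single-copy genes have no second copy in the genome, although all 9 values of RPS2 were fractional, so some of its reads were divided with other features. All 8 fell in Pcf11-13, with a median of −0.44, where 30.9% of all genes tested fell. RPS3 (YNL178W), for a protein at the entry of the mRNA channel, stood at 3084, 3246 and 3154 CPM in wild type, 2128, 2161 and 2160 in Pcf11-13 and 3031, 3189 and 3034 in Pcf11-DNL. It fell the most of the 8, by 0.56 (SE 0.0375, adjusted p 3.29e-09 by edgeR). RPS31 (YLR167W) stood at 2474, 2766 and 2816 CPM in wild type, 2083, 2170 and 2200 in Pcf11-13 and 2649, 2812 and 2669 in Pcf11-DNL, and fell the least, by 0.32 (SE 0.0482, adjusted p 2.32e-05). Between them lay, among others, RPS13 (−0.50), RPS20 (−0.49), RPS2 (−0.48), RPS15 (−0.39) and RPS12 (−0.39). RPS13 stood at 1730, 1839 and 1772 CPM in wild type, 1257, 1264 and 1268 in Pcf11-13 and 1730, 1787 and 1669 in Pcf11-DNL. RPS20 stood at 1648, 1617 and 1602 CPM in wild type, 1149, 1105 and 1220 in Pcf11-13 and 1526, 1586 and 1575 in Pcf11-DNL. For both, all Pcf11-13 libraries lay below the other 6, and for RPS20 those of Pcf11-DNL lay just below wild type. RPS2, whose protein lies at the mRNA entry next to Rps3, stood at 3917, 4017 and 4057 CPM in wild type, 2831, 2779 and 3004 in Pcf11-13 and 3870, 4062 and 3808 in Pcf11-DNL. Here Pcf11-DNL overlapped wild type and Pcf11-13 lay lower. RPS15, for a protein of the head, stood at 1375, 1375 and 1343 CPM in wild type, 1004, 1051 and 1061 in Pcf11-13 and 1269, 1327 and 1234 in Pcf11-DNL. RPS12 stood at 1272, 1583 and 1577 CPM in wild type, 1087, 1147 and 1158 in Pcf11-13 and 1500, 1682 and 1461 in Pcf11-DNL. RPS15 did not overlap between strains, and for RPS12 the low value of wild type replicate 1 is still above Pcf11-13. In Pcf11-DNL 0 of the 8 passed by edgeR and 0 by DESeq2, and 1 had an unadjusted p under 0.05; their values ran from −0.10 for RPS15 to 0.07 for RPS12.

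**Figure D3:**
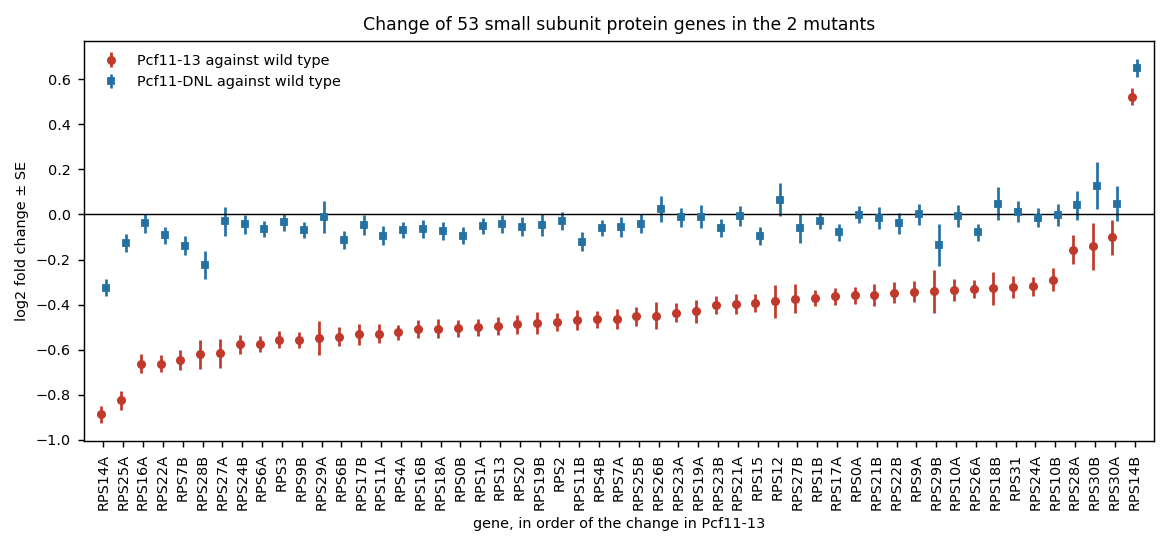
Log2 fold change against wild type with its SE for 53 of the 56 genes, ordered by the change in Pcf11-13 (circles), with Pcf11-DNL as squares. The circles run from −0.89 for RPS14A to 0.52 for RPS14B, and the squares stay near 0 apart from RPS14A at −0.32, RPS28B at −0.22 and RPS14B at 0.65.

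Of the 4 genes that fell in Pcf11-DNL, RPS14A did so in all 18 alternative fits and RPS14B likewise rose in all 18. The others were smaller: RPS28B fell by 0.22 (SE 0.063, adjusted p 0.0283 by edgeR) and RPS7B by 0.14 (SE 0.0424, adjusted p 0.0411). Of the 18 alternative fits, RPS28B did not pass in 5 and RPS7B did not pass in 9. Among the fits that left out 1 library, RPS28B did not pass without wild type replicate 1 or 3 or Pcf11-DNL replicate 1 or 3, with adjusted p up to 0.106 by edgeR. RPS7B passed in 2 of the 9 fits that left out 1 library, those without wild type replicate 3 or Pcf11-13 replicate 1, and its adjusted p reached 0.122 in the others. At the other end of the list, the highest values after RPS14B were 0.13 for RPS30B and 0.07 for RPS12, neither of which passed. Both turn to values just below 0 without wild type replicate 1 (−0.013 and −0.030).

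RPS25A and RPS16A, among the 6 genes that fell furthest in Pcf11-13, were also well above that strain in Pcf11-DNL: RPS25A by 0.70 (SE 0.0416, adjusted p 1.43e-09 by edgeR) and RPS16A by 0.62 (SE 0.0412, adjusted p 4.39e-09). The median of the 56 was 0.41. RPS30A, at 0.15, and RPS29B, at 0.21, did not pass, and both did without wild type replicate 1 (adjusted p 0.042 and 0.0249), which enters this contrast through the shared estimate of the spread. This comparison uses the Pcf11-13 libraries again, so its order of genes is not independent of that against wild type.

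Ratios of the A to the B copy within a library do not depend on the scaling between libraries. In wild type the A copy held more of the counts in 14 pairs and the B copy in 10, from 10.5% for RPS9A to 91.4% for RPS22A, and 16 pairs were within 2-fold. The log2 ratio did not overlap between the Pcf11-13 and wild type libraries in 18 of the 24 pairs (75%), where 66.7% of all 60 A and B pairs of the table, most of them ribosomal protein genes, did not overlap. In Pcf11-DNL against wild type 5 pairs did not overlap, among them RPS0, RPS1, RPS14 and RPS28, or 20.8% against 20% of all pairs, and between the mutants 19 pairs, or 79.2% against 75%. These shares are near the background. The exact permutation test, two-sided, cannot go below 0.1 with 3 libraries a group, and over the 24 pairs no adjusted p was below 0.126.

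The sizes set RPS14 apart. Its log2 ratio changed by −1.41 in Pcf11-13 and by −0.98 in Pcf11-DNL, where the next largest changes in either direction were 0.47 and 0.27, both of RPS28, and the median size over the 24 pairs was 0.16 and 0.0506 (exact permutation p 0.1 for RPS14 in both, adjusted over the pairs 0.133 and 0.48). The RPS28 log2 ratio was 1.96 in wild type replicate 1, and 2.32 and 2.26 in replicates 2 and 3. That library therefore widened both RPS28 changes, and their rank among the pairs rests in part on it. In Pcf11-13, RPS25 changed by −0.38 and RPS22 by −0.32. RPS22A held 91.4% ± 0.237 in wild type and 89.5% ± 0.318 in Pcf11-13, and RPS25A 65.6% ± 0.862 and 59.5% ± 0.677. RPS28A went the other way, from 81.9% ± 1.99 to 86.3% ± 0.902. Its wild type values were 79.6%, 83.3% and 82.8%, the lowest being that of replicate 1. The copy with more counts in wild type lost share in 13 pairs and gained it in 11 in Pcf11-13. The 9 pairs with identical proteins had a median size of change of 0.0605 and the 15 with different proteins 0.182, but shared reads are most frequent in the first, and their part in this difference was not tested.

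**Figure D4:**
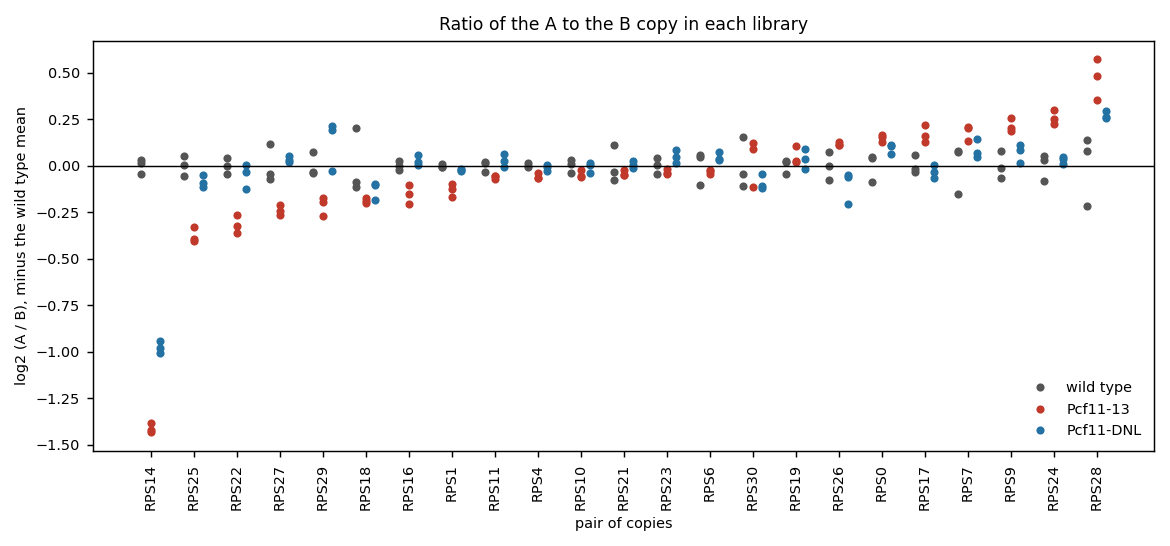
Log2 ratio of the A to the B copy in each library minus the mean of the 3 wild type libraries, for 23 of the 24 pairs in order of the change in Pcf11-13. The RPS14 points lie near −1.41 for Pcf11-13 and −0.98 for Pcf11-DNL, and those of the other pairs stay within about 0.6 of the wild type mean.

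Counted as proteins, with the copies of each pair summed before the fit, 31 of the 32 proteins had lower RNA in Pcf11-13 and 0 higher by edgeR (0 at an unadjusted p under 0.05), with RPS30 at −0.13 (adjusted p 0.239) the exception. In Pcf11-DNL 0 of the 32 passed in either direction by edgeR, where 8 were lower and 0 higher at an unadjusted p under 0.05, and against Pcf11-13 all 32 were higher in Pcf11-DNL. In the fit without summing, 30.9% of all genes tested fell and 35.2% rose in Pcf11-13, and 4.3% fell and 8.73% rose in Pcf11-DNL. Between the mutants, 29.5% of all genes were higher in Pcf11-DNL in that fit.

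Features of the genes that were read from the annotation divided the group little. Over all genes tested, 30.9% fell and 35.2% rose in Pcf11-13. Of the 36 genes with an intron in the coding region 33 fell in Pcf11-13 and 1 rose, with a median of −0.47, and all 20 without one fell, with a median of −0.45. In Pcf11-DNL the medians were −0.04 for both. Each A copy but RPS30A fell in Pcf11-13 (23 of 24, median −0.48), and of the 24 B copies 22 fell and RPS14B rose (median −0.45). By position, 23 genes have their nearest upstream neighbour on the same strand (median −0.49 in Pcf11-13) and 33 on the opposite strand (−0.44). The nearest downstream neighbour points towards the gene in 35 (median −0.48) and the same way in 21 (−0.39). The 4 genes that fell in Pcf11-DNL all combine an upstream neighbour on the same strand with a downstream neighbour that points towards them, as 14 of the 56 do. This was noticed after their values were seen and was not tested. RPS14A is among 5 genes with a snoRNA gene as nearest downstream neighbour, in its case a convergent one (SNR65).

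Rap1 binding letters were searched as ACCCNNACA on both strands. In the 500 bases before the start codon 18 of the 56 genes held them (32.1%), where 5.49% of the 5901 protein-coding genes of the table and 44.4% of the 81 large subunit genes did. In the shorter window from 250 bases before to 50 after the start codon the counts were 4 of 56 (7.14%) against 2.81% of all. RPS16A and RPS16B are shown because both hold the letters on both strands. The stretches, with the matches in capitals, lie at chrXIII:551518-551637 (plus strand, 410 to 291 bases before the start codon) and chrIV:308130-308219 (minus strand, 430 to 341 bases before).
RPS16A: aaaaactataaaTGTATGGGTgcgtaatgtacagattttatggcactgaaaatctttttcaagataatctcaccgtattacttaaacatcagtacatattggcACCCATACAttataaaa
RPS16B: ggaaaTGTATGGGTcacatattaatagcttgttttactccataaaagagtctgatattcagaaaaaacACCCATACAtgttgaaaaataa
The 22 matches lay between 181 and 489 bases from the start codon, with a median of 332. All 18 genes with the letters fell in Pcf11-13 (median −0.47), and of the 38 without them 35 fell and 1 rose (median −0.45). Over all genes tested, 30.9% fell and 35.2% rose. Neither copy of RPS14 held the letters in either window, which says nothing of binding by Rap1.

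Genes that work with the small subunit moved along with it in Pcf11-13. Of 28 factors of small subunit assembly and export 26 fell and 0 rose by edgeR, with a median of −0.45. Of all genes tested 30.9% fell and 35.2% rose in that strain, with a median of 0.03. ENP1, needed for export of the precursor, fell by 0.61 (SE 0.0479) and EMG1, a methyltransferase of the ribosomal RNA, by 0.59 (SE 0.0526). The count of higher genes was 0 for this list at an unadjusted p under 0.05 as well, and 0 by DESeq2. All 22 initiation factors and associated proteins that act on the subunit fell, with a median of −0.42, among them ASC1, a protein of the head built like a propeller, at −0.67, and TIF4631, the scaffold eIF4G of the cap-binding complex, at −0.65. Of 79 large subunit protein genes tested 77 fell and 0 rose by edgeR (0 at an unadjusted p under 0.05 and 0 by DESeq2), with a median of −0.43. In Pcf11-DNL the assembly list had 1 lower gene, HRR25, and the initiation list 1, GCD11, where 4.3% of all genes fell, and both had 0 higher by edgeR, at an unadjusted p under 0.05 and by DESeq2. Both counts of lower genes were 0 without wild type replicate 1, Pcf11-13 replicate 2 or 3, or any 1 of the Pcf11-DNL replicates. Without wild type replicate 2 they were 2 and 4, without Pcf11-13 replicate 1 they were 2 each, and without wild type replicate 3 they were 0 and 1. With a replicate block they were 4 and 3. Of the large subunit genes 6 fell and 1 rose in Pcf11-DNL. With 1 library left out between 0 and 6 fell: 6 without wild type replicate 1, 5 without wild type replicate 3, 3 without Pcf11-13 replicate 1, 0 without Pcf11-DNL replicate 3, 1 without Pcf11-DNL replicate 2, and 2 without each of the others in turn.

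The 27 regulators of these genes did not move one way. In Pcf11-13 13 of 27 fell and 8 rose, where 30.9% of all genes fell and 35.2% rose, and without wild type replicate 1 the counts were 14 and 9. Among those that fell were HMO1, which binds many ribosomal protein promoters, at −0.52 (adjusted p 1.03e-07 by edgeR), CBF1 at −0.46 and RAP1 itself at −0.43 (adjusted p 1.52e-06). The 8 that rose included RIM15, a kinase that acts when nutrients run short, at 0.95 (adjusted p 7.18e-11), CRF1, a corepressor of ribosomal protein genes in some strains, at 0.68 (adjusted p 7.28e-06), the repressor DOT6 at 0.34 and the kinase YAK1 at 0.30 (adjusted p 7.66e-05). IFH1, the activator that CRF1 competes with, was among those that rose, at 0.26 (adjusted p 0.000258 by edgeR), and SFP1 did not pass, at −0.10. In Pcf11-DNL CBF1, at −0.25 (adjusted p 0.0025 by edgeR), was the one regulator that passed. Without wild type replicate 1 the counts in Pcf11-DNL were 1 lower and 2 higher, without wild type replicate 2 or 3 they were 2 lower and 0 higher, and with a replicate block 3 lower and 0 higher. With library totals 4 of the 27 fell and 13 rose in Pcf11-13, where 861 of all 5646 genes fell and 3372 rose, so the split of the list moved with that of all genes.

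Wild type replicate 1 tended to read lower for the shorter genes, with exceptions. Its CPM over the mean of replicates 2 and 3 had a median log2 of −0.21 for the 10 genes with coding regions under 300 bases, from −0.50 for RPS30B to 0.11 for RPS28B, and of −0.04 for the other 46. Across the 56 genes, which share these 3 libraries, Pearson's r with coding length was 0.446 and Spearman's rho 0.38, given as a description. RPS12 (432 bases) and RPS18B (441 bases) were low in this library too without being short. With it left out, the median of the 56 was −0.47 in Pcf11-13 and −0.06 in Pcf11-DNL, and 55 and 3 genes were lower. The change in Pcf11-13 had a median of −0.37 for the short genes and −0.47 for the longer ones, and the part of replicate 1 in this was not tested beyond the values without it.

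**Figure D5:**
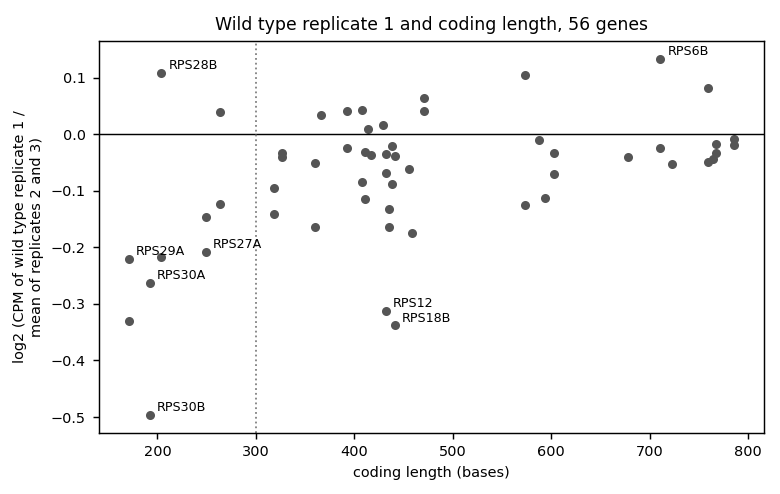
Log2 ratio of the CPM in wild type replicate 1 to the mean of wild type replicates 2 and 3, against coding length in bases, for the 56 genes (points). The dotted line marks 300 bases. To its left 8 of 10 points lie below 0, with a median of −0.21, and to its right 36 of 46, with a median of −0.04.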

How the data were processed

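RNA of 9 yeast cultures was measured, 3 replicates for each of 3 strains. The authors deposited 1 table of expected counts per gene, without normalization; 10.8% of the values were not whole. Per the submitters' processing notes, the tools were RSEM 1.3, STAR 2.6.1b, DESeq2 1.26.0, FastQC and Trimmomatic 0.38, with build sacCer3; the strand setting is not given in the sources used here, so reads from opposite strands of overlapping transcripts cannot be told apart. Library totals lay between 11372819 and 15906466.

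Expected counts were rounded, and edgeR 4.0.16 (R 4.3.3) was run with filterByExpr (minimum count 10, 5646 genes kept), TMM scaling and 1 quasi-likelihood fit to all 9 libraries, with the strain as its term. Tests were two-sided, with Benjamini-Hochberg adjustment over all genes tested and a threshold of 0.05. The biological coefficient of variation was 4.59%. Ratios of copies were taken per library as log2 with 0.5 added to each count and compared with exact permutation tests. Of 5928 genes, 5919 matched the R64 annotation by systematic name. The labels call the replicates biological. Simulated data were used to test the scripts.

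Members and gene lists were chosen with earlier results of these data known. Genes with values per library were the 6 lowest and 4 highest in Pcf11-13, the 3 lowest and 3 highest in Pcf11-DNL, the pairs whose ratio changed most, the single-copy genes, and RPS14B, RPS28B, RPS9A, RPS9B and RPS22B; of the other lists, genes with the smallest adjusted p. IFH1, SFP1, HRR25 and RPS7B in Pcf11-DNL and all neighbours were named after their values were seen. Alternatives were DESeq2 size factors and its Wald test (1.42.0), limma-voom (limma 3.58.1), library totals, TMM without ribosomal protein genes, other filters, the compared groups alone, a replicate block, each library left out, a fold of at least 1.5, and copies summed. The values of some genes are not reported here; these genes remain in all counts, medians and sums. The window of 500 bases for the Rap1 letters was chosen after seeing the data.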

Additional observations from a re-analysis of the deposited data

How the results depend on the processing

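Scaling by library totals moved the median of all genes to 0.25 in Pcf11-13 and −0.18 between the mutants. The median of the 56 genes was then −0.24 in Pcf11-13, 0.0081 in Pcf11-DNL and 0.25 between the mutants, and relative to all genes −0.49, −0.04 and 0.43, as in the TMM fit; 47 genes were lower in Pcf11-13 and 1 in Pcf11-DNL. RPS28A, RPS30B and RPS30A were then at 0.056, 0.068 and 0.11 in Pcf11-13, and RPS14B at −0.036 between the mutants; the shift of the scale is part of how this alternative is built. A fold of at least 1.5 left 8 lower and 0 higher genes in Pcf11-13, 0 lower in Pcf11-DNL and 4 higher between the mutants. RPS14B, higher in Pcf11-DNL by a fold of 1.57, passed this limit too. With copies summed, fewer features are tested: 31 were lower and 0 higher in Pcf11-13, 0 lower and 0 higher in Pcf11-DNL, and 32 higher between the mutants. In Pcf11-DNL the count of lower genes was 7 by DESeq2's Wald test and 2 with the compared groups alone, and between 1 and 4 when 1 library was left out; the cause was not tested. With 1 library left out, RPS12 lay between −0.030 and 0.119 in Pcf11-DNL, RPS30B between −0.013 and 0.249 and RPS28A between −0.026 and 0.082, each lowest without wild type replicate 1; RPS28A was at −0.0046 without Pcf11-DNL replicate 2. Without the 10 genes with the highest counts in the total, the shares were 8.12%, 6.66% and 8.08%. Same-numbered libraries of Pcf11-13 and wild type each correlated best with their own number, a hint from the data, but those of the other pairs of strains did not. With a replicate block 53 genes were lower and 1 higher in Pcf11-13, 5 lower and 1 higher in Pcf11-DNL, and 55 higher between the mutants. Counts were lowest for RPS29A, down to 329, and the part of depth in the spread of the short genes was not tested.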
